A study of Homo sapiens with 4 samples.

Results

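The genes examined here encode the proteasome, the factors that assemble it and NFE2L1, the transcription factor that drives its genes. They were chosen by name, from a list of 50 genes, and not by their response, though with earlier results of these data known. Each gene was read from the row of the deposited table that carried its symbol alone, and from the brightest such row where there were several, which gave values for 46 of the 50 genes among 33616 named genes in the table. PSMC5, PSMD7, PSMD13 and PSME2 had no row of their own and were not analysed here.

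The cells were H929, a human line established from multiple myeloma, and their total RNA was hybridised to microarrays that cover whole transcripts. The 2 treated samples received meayamicin B at 3 nM for 8 h and the 2 control samples, labelled untreated, carry the same 8 h time point in their titles, with no vehicle named. Both groups are 1 cell line in the same serum-containing medium, so the values describe that line alone. Meayamicin B inhibits pre-mRNA splicing by binding SF3B1 within the spliceosome. Values are log2 expression as deposited, so a difference of -1 means a level cut to 0.5 of the untreated one, and with 2 arrays per group the number of arrays limits the precision.

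The proteasome is the protease that degrades ubiquitin-tagged proteins. Its barrel-shaped core consists of stacked rings of alpha and beta subunits, the beta rings carry the proteolytic sites, and a regulatory cap, built of a base with ATPases and a lid, recognises and unfolds substrates and feeds them in. Plasma cells and myeloma cells secrete large amounts of immunoglobulin and depend on this machinery, which is why proteasome inhibitors are used in myeloma.

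All 46 genes lay above background on all 4 arrays, the background being the 95th percentile of 612 negative control rows on each array. That background was 5.03 and 5.13 in the treated arrays and 4.50 and 4.76 in the untreated arrays. The labels name a human myeloma cell line and no cell type. For plasma cells 10 genes were listed, SDC1, CD38, XBP1, IRF4, PRDM1, TNFRSF17, JCHAIN, MZB1, SLAMF7 and NSD2, and 10 of 10 were above background on every array. Of these, NSD2 is not confined to plasma cells. Of the markers of other cell types measured, 1 of 3 B cell (PAX5), 1 of 5 T cell (CD3E), 1 of 5 monocyte (FCN1), 2 of 4 fibroblast (COL1A1 and COL1A2) and 2 of 5 epithelial genes (KRT8 and KRT18) were above background on all 4 arrays, and MS4A1, CD3D and EPCAM were on none. The poly-A spike-ins dap, phe and thr were bright on both arrays numbered 1 and dim on both numbered 2, so differences are also given within each replicate number. In bulk RNA, fewer cells expressing a gene and less RNA per cell cannot be told apart.

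On the rows used, most subunits of the proteasome differed little between treated and untreated cells, and 4 of the 46 genes were called lower. Each value summarises a whole row, so spliced and unspliced RNA of a gene were not told apart. The assembly chaperone PAAF1 fell 4.08-fold, to a level not far above background. The core subunit PSMA5 and the alternative activators PSME3 and PSME4 fell 1.85-fold, 1.72-fold and 1.85-fold. These 4 genes passed an adjusted p under 0.05 in limma's moderated test with a prior variance that follows the signal level, called the trended fit here, and 0 genes rose in it. They make up 8.70% of the 46 genes. Of the 14296 genes above background, 6.53% were called lower and 0.727% higher in the same fit (2.8% and 0.348% of all named genes, 1.17% of all rows in either direction), so the share of proteasome genes called was near the background. With limma's default prior, 0 of the 46 genes passed, against 0.0327% of all named genes and 0.0162% of all rows. In that fit 9 proteasome genes were lower and 0 higher at an unadjusted p under 0.05, beside backgrounds of 19.5% and 4.03%. The trended fit is the more permissive of the 2 and was chosen with its larger number of calls already known, so a call in it alone is weaker than a call in both.

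The number of calls depended on which arrays and rows entered the fit. Restricting the default fit to rows above background called the same 4 genes, against a background of 7.0%. The trended fit called 8 genes on those rows (background 13.9%) and 8 with the replicate number as a block (background 12.6%), where the default fit called 0 (background 0.021%). The 4 added in both cases were PSMB8, PSMD3, PSMG1 and PSMG4, with limma adjusted p of 0.030, 0.0099, 0.0149 and 0.0022 under the block. PAAF1 stayed below the threshold of the trended fit whichever array was left out, PSMA5 and PSME3 in 3 of the 4 cases, and PSME4 in 0. PSMA5 lost its call without untreated replicate 1 and PSME3 without untreated replicate 2. No share over all genes was computed for the fits with an array left out. The differences moved little when arrays were left out, from -0.97 to -0.80 in PSMA5, from -0.86 to -0.70 in PSME3 and from -0.96 to -0.82 in PSME4, whose limma adjusted p lay between 0.0625 and 0.169. After a second quantile normalization PSME4 was at -0.78 (limma adjusted p = 0.0646 in the trended fit).

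Over all 46 genes the median log2 difference, meayamicin B minus untreated, was -0.13, beside -0.09 over the genes above background, with -0.17 between the arrays numbered 1 and -0.14 between those numbered 2. Of the 46 genes, 32 were below 0. In 31 genes the treated array was lower in both pairs, beside a background of 46.7%, and in 9 it was higher in both, beside 25.6%. PAAF1 and PSMG4 were at least 2-fold lower and 0 genes at least 2-fold higher, beside backgrounds of 4.57% and 0.42%. In 26 genes both treated arrays lay under both untreated arrays, or 56.5%, beside a background of 39.5%, and in 5 genes they lay above, beside a background of 18.9%. Among genes above background, 77.0% differed by under 0.5 on the log2 scale, against 82.6% of the proteasome genes, a limit chosen after the values were seen.

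**Figure D1:**
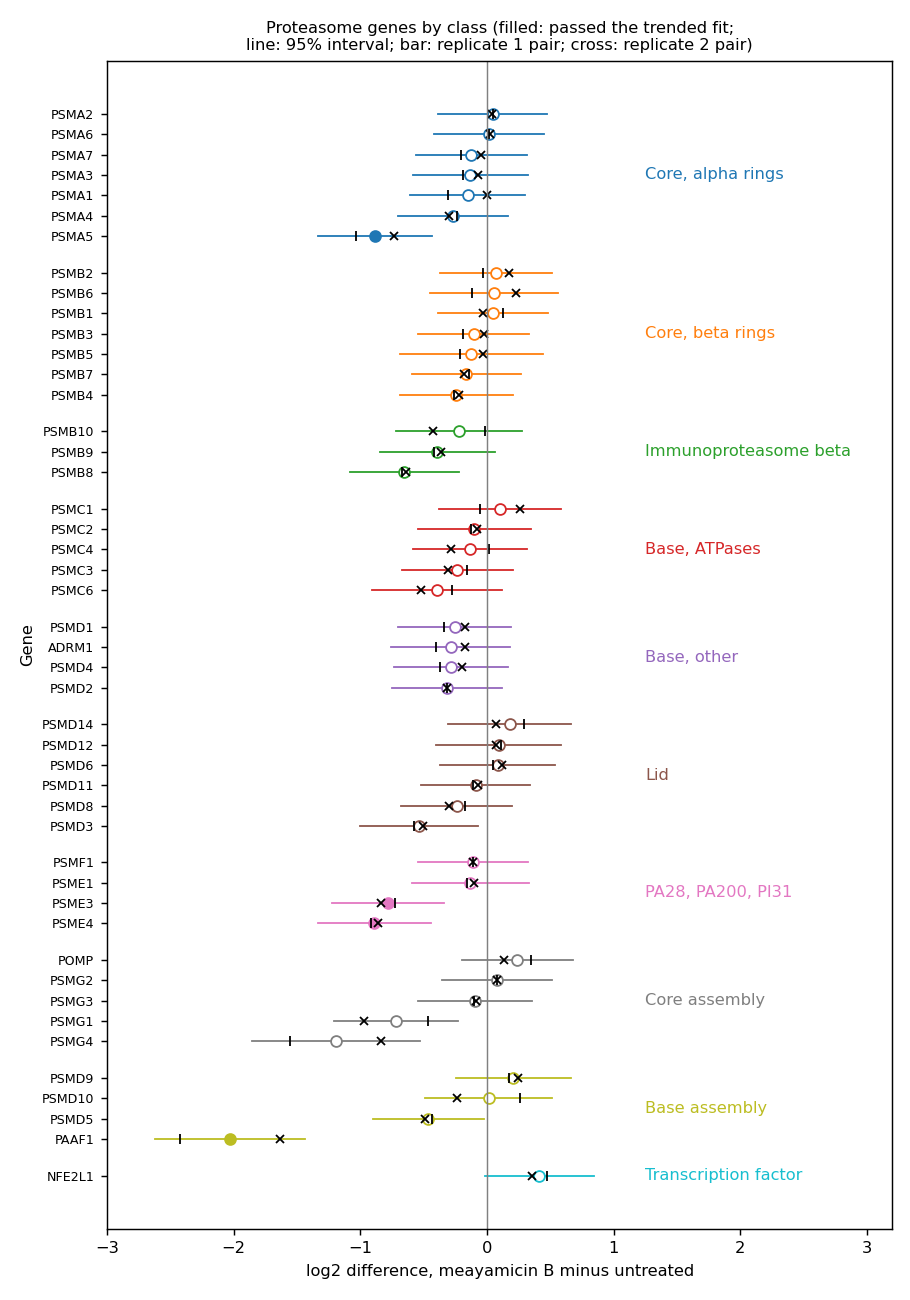
Log2 difference, meayamicin B minus untreated, of the 46 genes measured, grouped by role, with the 95% interval of limma's default fit as a line and the replicate pairs as a bar (1) and a cross (2). Filled points passed the trended fit (PSMA5, PSME3, PSME4 and PAAF1), and 27 of the 29 core, base and lid subunits lie within 0.5 of 0.

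**Figure D2:**
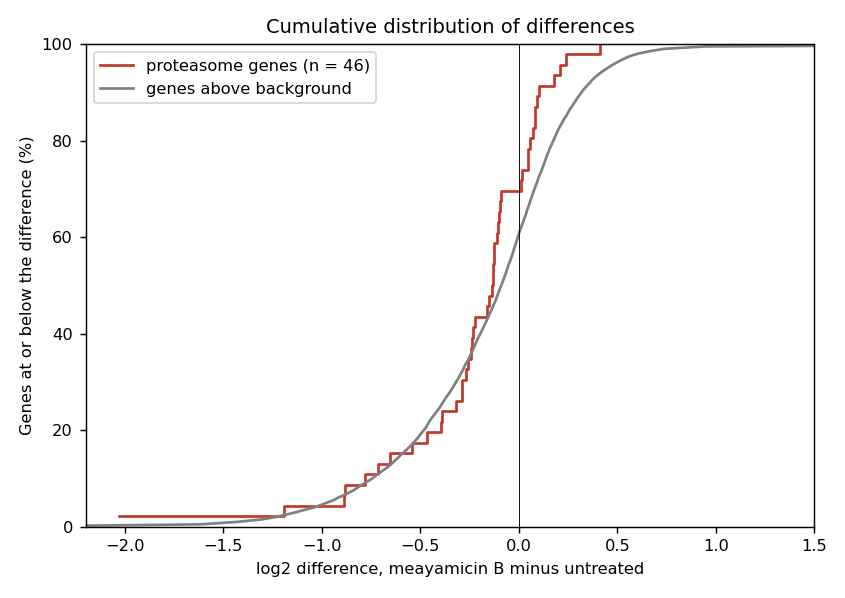
Cumulative share of genes (%) against the log2 difference, meayamicin B minus untreated, for the 46 proteasome genes and for the 14296 genes above background. The proteasome genes run from PAAF1 at -2.03 to NFE2L1 at 0.41.

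The alpha rings, which form the outer gates of the core, had differences close to 0 apart from PSMA5. PSMA5, an alpha ring subunit on chromosome 1 at 109399042 to 109426448 (GRCh38.p14), had 8.52 and 8.64 in treated cells, against 9.56 and 9.38 in untreated cells. The groups did not overlap, and the pairs gave -1.03 and -0.74. Its log2 difference was -0.89 (SE 0.19, limma adjusted p = 0.0117 in the trended fit and 0.192 in the default fit). The other 6 alpha subunits lay between -0.27 and 0.04 and none passed either fit. PSMA2, the highest, had 9.41 and 9.41 in treated cells and 9.36 and 9.37 in untreated cells, a difference of 0.04 (95% interval -0.39 to 0.47). PSMA4, the lowest of these 6, was at -0.27 (95% interval -0.71 to 0.17).

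The constitutive beta subunits lay between -0.24 and 0.07, and 0 of 7 passed either fit. PSMB5, which carries the chymotrypsin-like site that bortezomib binds, had 8.06 and 8.55 in treated cells and 8.27 and 8.58 in untreated cells. The groups overlapped, and the difference of -0.12 had a 95% interval of -0.69 to 0.44, so a fall or rise within those bounds cannot be told from the spread between arrays. PSMB4, a structural beta subunit, was the lowest at -0.24 (SE 0.19), with both treated arrays, 10.80 and 10.93, under the untreated ones, 11.06 and 11.16. PSMB2, which carries no catalytic site, was the highest at 0.07 (SE 0.19), with 10.34 and 10.51 in treated cells and 10.37 and 10.34 in untreated cells, which overlapped. PSMB6 and PSMB7, which hold the caspase-like and trypsin-like sites, were at 0.05 and -0.16.

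The 3 immunoproteasome subunits, which replace the catalytic beta subunits in lymphoid cells and after interferon, were lower in treated cells without overlap in 3 of 3 cases, beside 39.5% of genes above background, and 0 of 3 passed either fit. PSMB8, which takes the place of PSMB5, had 7.22 and 7.24 in treated cells, against 7.89 and 7.88 in untreated cells. Its arrays were tight within each group, and the difference was -0.65 (SE 0.18, limma adjusted p = 0.0915 in the trended fit). PSMB9, which takes the place of PSMB6, had 8.14 and 8.33 in treated cells and 8.56 and 8.70 in untreated cells, a difference of -0.39 (95% interval -0.85 to 0.06). PSMB10, which takes the place of PSMB7, had 6.89 and 6.88 in treated cells and 6.91 and 7.31 in untreated cells. It was at -0.22 (95% interval -0.72 to 0.28), with -0.02 and -0.43 in the pairs.

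The log2 difference of PSMB8 minus that of PSMB5, which it replaces, was -0.53, with -0.46 and -0.60 in the pairs. The corresponding value was -0.45 for PSMB9 against PSMB6, with -0.30 and -0.60 in the pairs. For PSMB10 against PSMB7 it was -0.06, and the pairs differed in sign, at 0.13 and -0.24. These gaps were chosen after the values were seen and were not tested. The class median was -0.39 for the immunoproteasome and -0.13 for the core.

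Other genes of the interferon and class I pathway, listed with the subunits they accompany, did not pass either fit, with 0 of 7 measured. IRF1, a transcription factor that activates the immunoproteasome genes, had 5.90 and 6.48 in treated cells and 6.66 and 7.25 in untreated cells, a difference of -0.77 (SE 0.29) that was the lowest of these 7. TAPBP, of the peptide loading complex, was the highest at 0.19 (SE 0.22). TAP1, the peptide transporter gene beside PSMB9 in the major histocompatibility complex, was at -0.09 (SE 0.27).

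In the base of the regulatory cap, 0 of 5 ATPases measured passed either fit on the rows used, and their differences lay between -0.40 and 0.10. PSMC1, the highest, had 10.73 and 10.69 in treated cells and 10.78 and 10.43 in untreated cells, with overlapping groups. PSMC6, the lowest, had 8.48 and 8.06 in treated cells, against 8.75 and 8.58 in untreated cells, a difference of -0.40 (95% interval -0.91 to 0.11). The other base subunits were close to each other. PSMD2 and PSMD1, the large scaffold proteins of the base, were at -0.32 (SE 0.18) and -0.26 (SE 0.19), and the ubiquitin receptors PSMD4 and ADRM1 were both at -0.29. PSMD2 had 8.48 and 8.54 in treated cells, against 8.80 and 8.86 in untreated cells, and PSMD1 had 9.63 and 9.81 in treated cells, against 9.97 and 9.99 in untreated cells. In 4 of these 4 genes the treated arrays lay under the untreated ones, beside 39.5% of genes above background, and 0 of 4 passed either fit.

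A second, dimmer row for PSMC6 was higher in treated cells. It had 7.12 and 7.17 in treated cells, against 5.68 and 5.78 in untreated cells, a 2.66-fold rise in the trended fit (log2 difference 1.41, SE 0.18, limma adjusted p = 0.00726) that was 1.44 and 1.38 in the replicate pairs. It was called in the trended fit in 4 of 4 cases when 1 array was left out, with differences from 1.36 to 1.46. The 2 rows differed from each other by 1.81, and of 451 genes with at least 2 rows above background, 10 had rows at least this far apart. The mean of both rows gave 0.51. The default fit gave it a limma adjusted p of 0.0813. The sources used here do not give the stretch of the gene that either row covers, and this row was singled out after its values were seen.

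**Figure D3:**
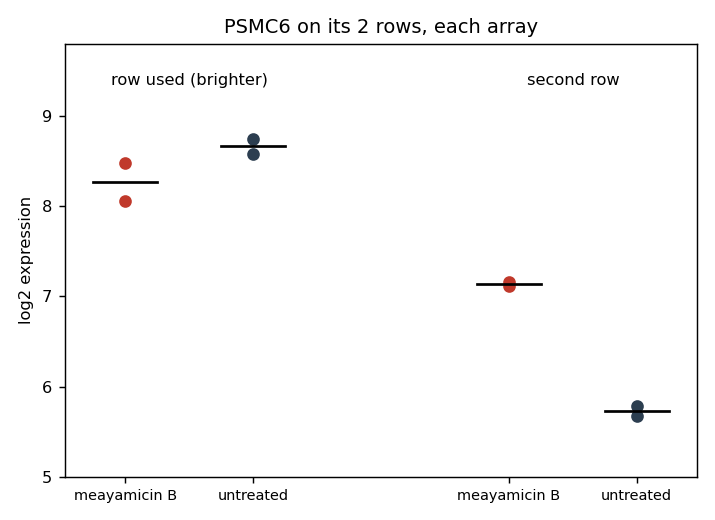
Log2 expression of PSMC6 on each array for its 2 rows, with group means as bars. On the brighter row the treated arrays, 8.48 and 8.06, lie under the untreated ones, and on the second row, at 7.12 and 7.17, they lie above them.

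PSMC4, another base ATPase, is named on 7 rows, 6 of which have identifiers that name no chromosome. The brightest of these, used here by the rule, was at -0.14 (SE 0.19), and the row whose identifier names a chromosome was at -0.12 (SE 0.20). A further row without a chromosome, also singled out after its values were seen, had 6.73 and 6.08 in treated cells, against 4.16 and 3.91 in untreated cells, where it was above background on neither array. It was at least 3.44-fold higher in treated cells (limma adjusted p = 0.00399 in the trended fit and 0.0654 in the default fit). For this bound each untreated array counted at its background level, which exceeded the row's own value. Whether this row measures PSMC4 was not tested.

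The lid, which removes ubiquitin chains before degradation, was centred on 0, with a median of -0.0038 over 6 genes and 0 of 6 past either fit. PSMD14, the deubiquitinating enzyme of the lid, was the highest, with 9.75 and 9.40 in treated cells and 9.46 and 9.33 in untreated cells, a difference of 0.18 (95% interval -0.31 to 0.67). PSMD3, a scaffold subunit of the lid, was the lowest, with 8.97 and 9.20 in treated cells, against 9.54 and 9.70 in untreated cells. Its groups did not overlap, and its difference of -0.54 (SE 0.20) had a limma adjusted p of 0.0992 in the trended fit. The other 4 lid subunits lay between -0.24 and 0.09. Over the core, base and lid subunits together, 27 of 29 genes differed by under 0.5 on the log2 scale, or 93.1%, beside 77.0% of the genes above background.

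Alternative activators bind the ends of the core in place of the ATPase cap, and 2 of the 3 measured fell in the trended fit, beside 6.53% of genes above background. Of these 2, PSME4 lost its call whichever array was left out. PSME4, which encodes PA200, a large nuclear activator linked to acetylated histones, lies on chromosome 2 at 53864069 to 53970993. It had 7.04 and 6.95 in treated cells, against 7.96 and 7.81 in untreated cells. The pairs gave -0.92 and -0.86, and the difference was -0.89 (SE 0.19, limma adjusted p = 0.0301 in the trended fit and 0.184 in the default fit). PSME3, which encodes PA28 gamma, a nuclear activator that works without ubiquitin, lies on chromosome 17 at 42833397 to 42843760. It had 9.38 and 9.44 in treated cells, against 10.11 and 10.27 in untreated cells. The difference was -0.78 (SE 0.19, limma adjusted p = 0.0108 in the trended fit and 0.234 in the default fit), and a second PSME3 row, above background on no array, was at 0.28 (SE 0.22).

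The remaining cap genes did not pass. PSME1, a subunit of the interferon-inducible PA28 activator, had 9.15 and 9.36 in treated cells and 9.31 and 9.47 in untreated cells, a difference of -0.13 with overlapping groups. PSMF1, which encodes the core inhibitor and adaptor PI31, was the highest of these genes at -0.11 (SE 0.18). Both treated arrays of PSMF1, 9.43 and 9.46, lay under its untreated arrays, 9.54 and 9.57.

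Assembly factors were the most spread out of the classes, from -2.03 to 0.24 over 9 genes with a median of -0.09. PAAF1, a chaperone that binds the ATPases while the base is built, lies on chromosome 11 at 73876699 to 73931114. It had 5.20 and 5.82 in treated cells, against 7.63 and 7.46 in untreated cells. Background on the 2 treated arrays was 5.03 and 5.13, not far below, so the size of the fall is less certain. The treated arrays differed from each other by more than the untreated ones, yet both were far below them, and the pairs gave -2.43 and -1.63. Its log2 difference was -2.03 (SE 0.25, limma adjusted p = 0.00399 in the trended fit and 0.0720 in the default fit), and it ranged from -2.34 to -1.72 when 1 array was left out. Of the genes above background, 0.077% had a lower difference than PAAF1. For the other called genes that share was larger, at 6.65% for PSMA5, 6.54% for PSME4 and 9.12% for PSME3.

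The other 3 base chaperones had differences closer to 0, and 0 of 3 passed either fit. PSMD9 had 7.58 and 7.46 in treated cells and 7.41 and 7.21 in untreated cells, a difference of 0.21 (95% interval -0.25 to 0.66). PSMD10, which encodes gankyrin, was at 0.01 with 0.26 and -0.23 in the pairs. PSMD5 had 7.24 and 7.13 in treated cells, against 7.68 and 7.62 in untreated cells, a difference of -0.47 (SE 0.19, limma adjusted p = 0.310 in the trended fit).

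The core chaperones PSMG1 to PSMG4 work as dimers that build the alpha ring. Of the 5 core assembly factors, 0 passed either fit on all rows and arrays without a block or centring. Under the replicate block and on rows above background alone, PSMG1 and PSMG4 were called lower in the trended fit (backgrounds 12.6% and 13.9%). PSMG4 was also called in it after ribosomal protein centring. In the PSMG1 and PSMG2 dimer, PSMG1 had 7.93 and 7.60 in treated cells, against 8.40 and 8.56 in untreated cells, a difference of -0.72 (SE 0.21, limma adjusted p = 0.0799 in the trended fit). PSMG2 was at 0.08 (SE 0.18). In the PSMG3 and PSMG4 dimer, PSMG4 had 6.02 and 6.83 in treated cells, against 7.58 and 7.66 in untreated cells. Its difference was -1.19 (SE 0.28, limma adjusted p = 0.0521 in the trended fit), just outside the threshold, with -1.56 and -0.83 in the pairs, and 2 dimmer PSMG4 rows above background on no array were at -0.15 and 0.13. PSMG3 was at -0.09 (SE 0.19). POMP, which guides the beta rings into place, had 8.89 and 8.77 in treated cells, against 8.55 and 8.63 in untreated cells, a difference of 0.24 (95% interval -0.20 to 0.68).

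**Figure D4:**
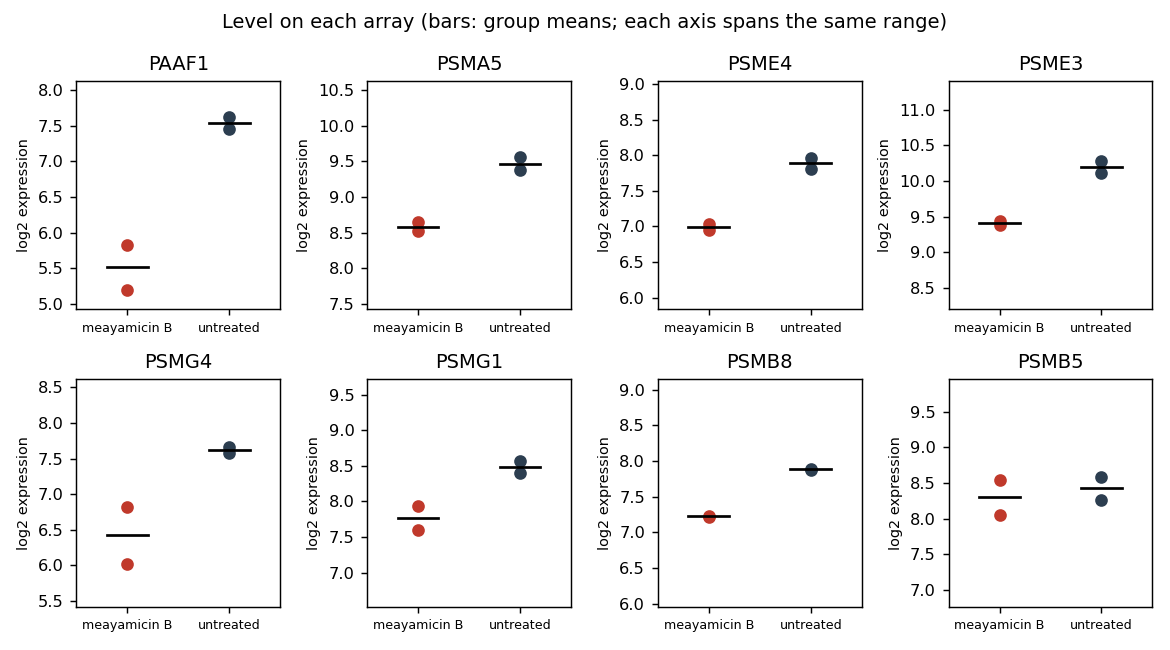
Log2 expression on each array for PAAF1, PSMA5, PSME4, PSME3, PSMG4, PSMG1, PSMB8 and PSMB5, with group means as bars and the same span on every axis. The treated points lie under the untreated points for the first 7 genes and overlap them for PSMB5, which with PSMG1 was added after the values were seen.

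NFE2L1 encodes NRF1, a transcription factor made at the endoplasmic reticulum. It is degraded by working proteasomes and, when they are inhibited, is cut, enters the nucleus and raises proteasome genes together through antioxidant response elements in their promoters. NFE2L1 had 9.03 and 8.97 in treated cells, against 8.56 and 8.61 in untreated cells, and was the highest of the 46 genes. The groups did not overlap, and its difference of 0.41 (95% interval -0.02 to 0.85) had a limma adjusted p of 0.229 in the trended fit. Of 10 measured genes that process or partner NRF1, 0 passed either fit. NFE2L2, a related factor, had 8.89 and 8.70 in treated cells and 8.30 and 8.45 in untreated cells, the highest of these at 0.42 (SE 0.19), and SYVN1, a ubiquitin ligase of the endoplasmic reticulum, was the lowest at -0.50 (SE 0.20).

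The promoters were searched for short patterns, among them the core of that element, TGACNNNGC, on both strands from 250 bases before to 50 bases after the transcript starts that RefSeq (GRCh38.p14) gives for each gene. A gene can have several such windows, and a start can lie inside the gene's outer span, as in PSMA4 and PAAF1. Of the 50 listed genes 44 had a window. In all, 9 patterns, some overlapping, were searched, and the one shown was chosen after their counts were seen, so its excess is a description picked from 9. TGACNNNGC was found in 36.4% of the 44 genes and in 16.1% of 27305 genes with a window. The same letters followed by A, the form shown, were found in 10 of the 44, or 22.7%, against 3.94%. Among 9038 genes above background with a window, this form was found in 4.10%. The other patterns were compared with all genes with a window only, expressed or not. The looser TGANNNNGC was found in 61.4% against 47.1%. The ETS core CGGAAG was found in 61.4% against 22.6%, and CGGAAGT, which includes it, in 36.4% against 8.18%. The GC box GGCGGGG was found in 52.3% against 34.9%, CCAAT in 22 of the 44 genes against 39.7%, and TATAAA in 4 of the 44 against 3819 of all 27305. The yeast proteasome-associated control element was in 0 of the 44 genes and 0.286% of all. The sites of the 9 measured members are shown with up to 8 flanking bases, 5′ to 3′ on the strand that reads TGAC, with the 10 matched letters in capitals.
PSMA4, chr15:78540652-78540677, plus strand: gggcacgaTGACTCTGCAccgcctcc
PSMB3, chr17:38752629-38752654, plus strand: ctccgtttTGACTTTGCAaccaaact
PSMB9, chr6:32854035-32854060, minus strand: gagacaagTGACGAGGCAgccccgcc
PSMD1, chr2:231056898-231056916, plus strand: gaggcgacTGACTGAGCAg
ADRM1, chr20:62302751-62302776, plus strand: ctcccctaTGACACAGCAacaatagg
PSMD3, chr17:39980831-39980856, minus strand: ccgcacgaTGACGGAGCAgctgcaaa
PSMD12, chr17:67366725-67366750, minus strand: acaaaaccTGACGCTGCAggctggag
PSME4, chr2:53971011-53971036, plus strand: tctgctggTGACGCTGCAgccgccgg
PSMD9, chr12:121888632-121888657, minus strand: gcctgtggTGACCCGGCAggagtagc

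The 9 measured members with a site had a median difference of -0.27, from -0.89 in PSME4 to 0.21 in PSMD9, and the 31 measured members whose window held none had a median of -0.13. The sites of PSMA4, PSMB3 and ADRM1 begin 126, 104 and 137 bases before the start of a transcript, and those of PSMD1 and PSMD3 begin 39 and 32 bases after it. A match describes letters in a window and does not show that a factor binds there. Of the 4 genes that fell in the trended fit, PSME4 carries a site, which begins 35 bases before its start. Its 250 upstream bases, shown because PSME4 is the called gene with the motif, run on the gene's own strand as follows, with the match, which lies on the opposite strand, in capitals.
PSME4 upstream, chr2:53970994-53971243, minus strand: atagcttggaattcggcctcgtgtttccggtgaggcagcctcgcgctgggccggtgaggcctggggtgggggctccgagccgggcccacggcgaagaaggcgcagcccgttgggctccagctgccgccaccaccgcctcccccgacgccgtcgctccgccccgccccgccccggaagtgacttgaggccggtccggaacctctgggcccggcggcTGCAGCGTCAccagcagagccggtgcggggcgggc

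Proteins that work alongside the proteasome, listed apart from its subunits, had a median of -0.13 over 17 of 18 genes measured. Of these 17, 70.6% differed by under 0.5, beside 77.0% of genes above background, and 9, or 52.9%, were lower without overlap, beside 39.5%. In the trended fit 1 fell, or 5.88%, and 0 rose, beside 6.53% lower and 0.727% higher among genes above background. The gene that fell was PITHD1, whose product has a domain shared with a proteasome-interacting thioredoxin, with 6.29 and 5.96 in treated cells, against 7.15 and 7.35 in untreated cells. Its difference was -1.13 (SE 0.21, limma adjusted p = 0.0248 in the trended fit and 0.150 in the default fit). ECPAS, a proteasome adaptor and scaffold, and UCHL5, a deubiquitinase of the cap, were at -0.77 and -0.62 and did not pass. UBQLN2, a shuttle that brings ubiquitinated proteins to the proteasome, was the highest at 0.58 (SE 0.19, limma adjusted p = 0.178 in the trended fit), with 7.59 and 7.65 in treated cells and 6.96 and 7.12 in untreated cells.

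Of 3 measured genes for ubiquitin and its activating enzymes, 0 passed either fit. UBA6, an activating enzyme, was the lowest at -1.01 (SE 0.28), with treated arrays of 7.12 and 6.32 that differed by more than its untreated arrays of 7.74 and 7.73. UBB, a polyubiquitin gene, was at -0.27 (SE 0.19). The tissue-specific subunits PSMA8 of testis and PSMB11 of thymus were above background on no array.

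Several subunits have pseudogenes with near-identical sequence, to which their probes could also bind. Of 31 such pseudogene rows, 5 were above background on all 4 arrays and 0 passed either fit. PSMC1P5 had 8.22 and 8.40 in treated cells and 8.32 and 8.07 in untreated cells, overlapping like PSMC1 itself. PSMA6P1, PSMA6P2, PSMC1P9 and PSMD8P1 lay between -0.34 and 0.02. How far these rows and those of PSMA6, PSMC1 and PSMD8 share signal was not tested.

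The differences were also set against the length of the genes. Across the 46 genes, which share arrays and are not independent replicates, Spearman's rho between genomic span and log2 difference was 0.15 and Pearson's r with log span was -0.05, and they were -0.30 and -0.29 across 14127 genes above background with a span. The longest, PSMA1 at 138787 bases, was at -0.15, and PSMD1 at 115961 bases was at -0.26, while PSME4 at 106925 bases was at -0.89 and PSMD14 at 103293 bases was at 0.18.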

How the data were processed

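RNA of 4 samples was hybridised to arrays, per the labels' protocols. The authors summarised the arrays with RMA in Transcriptome Analysis Console on hg38, as the submitters' processing notes record without versions. The deposited values are log2 expression, 1 per row and array, a scale read from their range and from RMA. RMA equalises the distributions of arrays, which would hide a shift of all RNA, and differences of dim rows are understated.

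Of 138745 rows, 2995 control rows were left out and 135750 were tested, of which 36176 carried 1 gene symbol, 1119 several and 98455 none. Symbols came from the platform annotation and were updated through RefSeq (GRCh38.p14), and 25516 single-symbol rows matched it. Groups came from the description label. The labels do not say whether replicates were separate cultures, and the p-values therefore reflect array-to-array spread alone, possibly technical. Limma 3.58.1 in R 4.3.3 compared meayamicin B with untreated, with Benjamini-Hochberg adjustment over all tested rows and a threshold of 0.05. The default fit adds 5.12 prior to 2 residual degrees of freedom, and the trended fit uses an intensity-dependent, robust prior. SEs and 95% intervals come from the default fit.

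The genes, the lists and both fits were chosen with earlier results of these data known. The promoter motif shown was kept from 9 patterns after their counts were seen. Full values are given for genes called in either fit and for the highest and lowest of each class. The alternatives were a replicate block, only rows above background, ribosomal protein centring, repeated quantile normalization, averaging a gene's rows, leaving out each array and a 2-fold minimum, and, chosen after seeing the data, only rows whose identifier names a chromosome.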

Additional observations from a re-analysis of the deposited data

How the results depend on the processing

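In the trended fit, 4 proteasome genes were called. With a replicate block the count was 8, and it was 8 on rows above background alone, each time with PSMB8, PSMD3, PSMG1 and PSMG4 added to the 4, beside backgrounds of 12.6% and 13.9%, and it was 1 with a 2-fold minimum. When 1 array was left out, PAAF1 alone kept its call in every case. The default count of 0 became 4 on rows above background and 4 with the trended prior. The median over the 46 proteasome genes, -0.13, was -0.070 after a second quantile normalization, -0.11 after centring on ribosomal protein genes and -0.19 to -0.16 without 1 array. The median over the genes above background, -0.09, also moved, to -0.033 after that normalization and to -0.066 after centring. After quantile normalization the medians were 0.019 for assembly factors, -0.11 for caps and -0.012 for the core. The cap median was -0.21 after centring and -0.13 with all rows of a gene averaged. Without 1 array, medians ranged from -0.20 to -0.021 for assembly, -0.23 to -0.17 for caps, -0.15 to -0.063 for the core and -0.49 to -0.30 for the immunoproteasome. Among named genes without a call, PSMB2 ranged from -0.015 (without treated replicate 2) to 0.16 and PSMC1 from -0.072 (without untreated replicate 2) to 0.28 when 1 array was left out. The ranges were -0.37 to 0.12 for PSMB5, -0.15 to 0.26 for PSMB6, -0.20 to 0.22 for PSMD10, -0.42 to -0.02 for PSMB10 and 0.0047 to 0.35 for PSMD14. PSMC1 was at -0.036 with rows averaged and PSMC6 at 0.51 with rows averaged. PSME4 at -0.78 lost its call after quantile normalization, PSMG4 gained one after ribosomal protein centring, and PSME3 was at -0.25 and not called with its background-level row averaged in. Using only rows whose identifier names a chromosome, an alternative chosen after seeing the data, changed no call. The causes of these shifts were not tested. The replicate numbers are not stated to mark a batch, and same-numbered arrays deviated from their group means with r = 0.02 over all rows and 0.07 over rows above background. The poly-A spike-ins dap, phe and thr did differ by number, at 9.97 and 9.42 for dap on the treated and untreated arrays numbered 1 and 3.19 and 2.88 on those numbered 2, and whether arrays of a number were prepared together was not tested. With 2 arrays per group, a difference such as that of PSMB5 is known only to within -0.69 to 0.44.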
